A study of Homo sapiens with 6 samples.

Results

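Nucleosomes are built mostly from replication-dependent histones, whose mRNAs are made in S phase and end in a stem-loop instead of a poly(A) tail. Variant histones are made throughout the cell cycle, mostly from polyadenylated mRNAs, and replace the bulk histones at chosen sites. The stem-loop mRNAs need factors of their own. NPAT is a coactivator that gathers at the histone gene clusters in the histone locus body, SLBP binds the stem-loop, and LSM11 is a subunit of the U7 snRNP that directs the cut just downstream of it.

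The data described here are the mRNA levels of 9 genes of this system, chosen by symbol, in the acute myeloid leukemia (AML) cell line MV4-11. They are 6 variant histone genes (*H2AX*, *H2AZ1*, *H2AZ2*, *H3-3A*, *H3-3B* and *H1-10*) and 3 factor genes (*SLBP*, *NPAT* and *LSM11*), out of 20348 genes in the table. All 9 were found and all 9 passed the filter on low counts, as did 11973 genes in all. RNA-seq was made from 3 Control samples (labelled Ctrl) and 3 samples treated for 48 h with 1 μM WNK463. The study calls Control a blank control, and WNK463 is an inhibitor of the WNK kinases. The study asked which transcripts change when this drug inhibits AML cells. Each group is a single cell line at 1 dose and 1 time, and no source says whether the 3 samples came from separate cultures or whether Control received the solvent, so p-values measure the spread between these samples only.

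The sum of the estimated counts per sample lay between 14915745 and 17411780. Values are given as counts per 1000000 of the library scaled with edgeR's TMM method (CPM). Differences are log2 fold changes of WNK463 over Control with their standard error (SE) from edgeR's quasi-likelihood test, with p adjusted by Benjamini-Hochberg over all genes tested. The median log2 fold change of all genes tested was 0.016 with TMM. It was 0.17 with scaling by total counts, a shift of 0.152 between both scalings, so the direction of small differences depends on the scaling. Of the myeloid markers, *PTPRC*, *SPI1*, *FLT3*, *CD33*, *CSF1R* and *LYZ* were above 50 CPM in Control, whereas *MPO* was at 7.47 CPM. Several of them differed between the groups, with means in Control and WNK463 of 1355 and 291 CPM for *LYZ*, 7.47 and 1.31 CPM for *MPO*, 91.6 and 210.4 CPM for *PTPRC*, and 58.6 and 114 CPM for *CSF1R*. *FLT3* had 369 and 319.9 CPM, *CD33* 84.8 and 65.3 CPM, and *SPI1* 218 CPM in both. The part of these marker differences in the results was not tested. Markers of T, B, epithelial, erythroid and fibroblast cells had at most 12 counts in any sample.

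Among the 9 genes, only *H2AX* carries the stem-loop in an annotated transcript. The search looked on the sense strand of GENCODE 29 transcripts (GRCh38) for 16 bases with a stem of 6 pairs around a loop of 4 bases, with the 5′ arm of the stem starting with GG and ending with T, T as the first base of the loop, and the 3′ arm starting with A and ending with CC. A match occurred in 0.351% of 58676 genes, and in 28 of the 65 replication-dependent histone genes found there. The *H2AX* stem-loop lies in the 3′ UTR at chr11:119094898-119094913 on the minus strand, 49 bases after the stop codon. Both of its 2 annotated transcripts hold the match, and for each gene the longest transcript with a match was used. For *H2AX* this transcript has 1614 bases and runs on for another 1044 bases past the stem-loop. The transcripts of *H2BC21*, *H2AC6* and *H4C8* that hold the match run on as well, for 1729, 1128 and 1655 bases. Others end soon after it, such as those of *H4C11* and *H2BC5* after 6 and 39 bases. The *H2AX* stem-loop is shown beside the stem-loops of the 2 matching replication-dependent genes with the most reads after treatment, *H2BC21* (chr1:149886188-149886203, minus strand) and *H2AC6* (chr6:26124669-26124684, plus strand), and that of *H4C8* (chr6:26285131-26285146, minus strand), an H4 gene picked after the sequences were seen because its stem has the same letters. Capitals mark the stem, and the lower case letters are the 4-base loop and 5 bases on each side, 5′ to 3′.
H2AX: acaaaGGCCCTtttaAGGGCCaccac
H2BC21: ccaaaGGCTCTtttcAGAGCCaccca
H2AC6: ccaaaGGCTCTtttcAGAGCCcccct
H4C8: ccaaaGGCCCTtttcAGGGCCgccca
The most common form, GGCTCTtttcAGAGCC, was present in 15 of the 28 genes, and the *H2AX* form was present in 0 of them. Counted from the first base of the stem, *H2AX* differs from the common form by T4C, C10A and A13G, with the base of the common form given first. Both stem changes keep the pairing. The mean level after treatment was 27.9 CPM for *H2BC21*, 26.7 CPM for *H2AC6* and 3.51 CPM for *H4C8*.

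After WNK463, 7 of the 9 genes fell and 1 rose at an adjusted p below 0.05 from edgeR, where 70.8% of all genes tested were called in either direction. *H2AX* fell most, followed by *SLBP*, *H2AZ1*, *H1-10*, *NPAT*, *LSM11* and *H3-3A*, of which *H3-3A* was at 0.017 with total counts, while *H3-3B* rose. *H2AZ2* did not pass. Over all genes tested 35.3% were called lower and 35.5% higher. With total counts 5 of the 9 genes were lower and 2 higher, against 26.1% and 46.1% of all genes. At a log2 fold change of at least 1 in size, *H2AX* was the only one of the 9 called. By this rule 15.2% of all genes tested were called, 5.55% of them lower and 9.62% higher, as shares of all genes. The median log2 fold change of the 9 genes was -0.51. In CPM the groups did not overlap for any of the 9 genes, 8 with lower and 1 with higher treated samples. The same held for 73.5% of all genes tested, lower in 36.4% and higher in 37.1%. In TPM the groups of *H2AZ2*, *H3-3A* and *NPAT* overlapped. With total counts those of *H3-3A* overlapped, and those of *H2AZ2* were apart with the treated samples higher. An exact two-sided permutation test gave p = 0.10 for each gene, the smallest that 3 samples against 3 allow. In bulk RNA, fewer cells expressing a gene and less RNA per cell cannot be told apart.

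**Figure D1:**
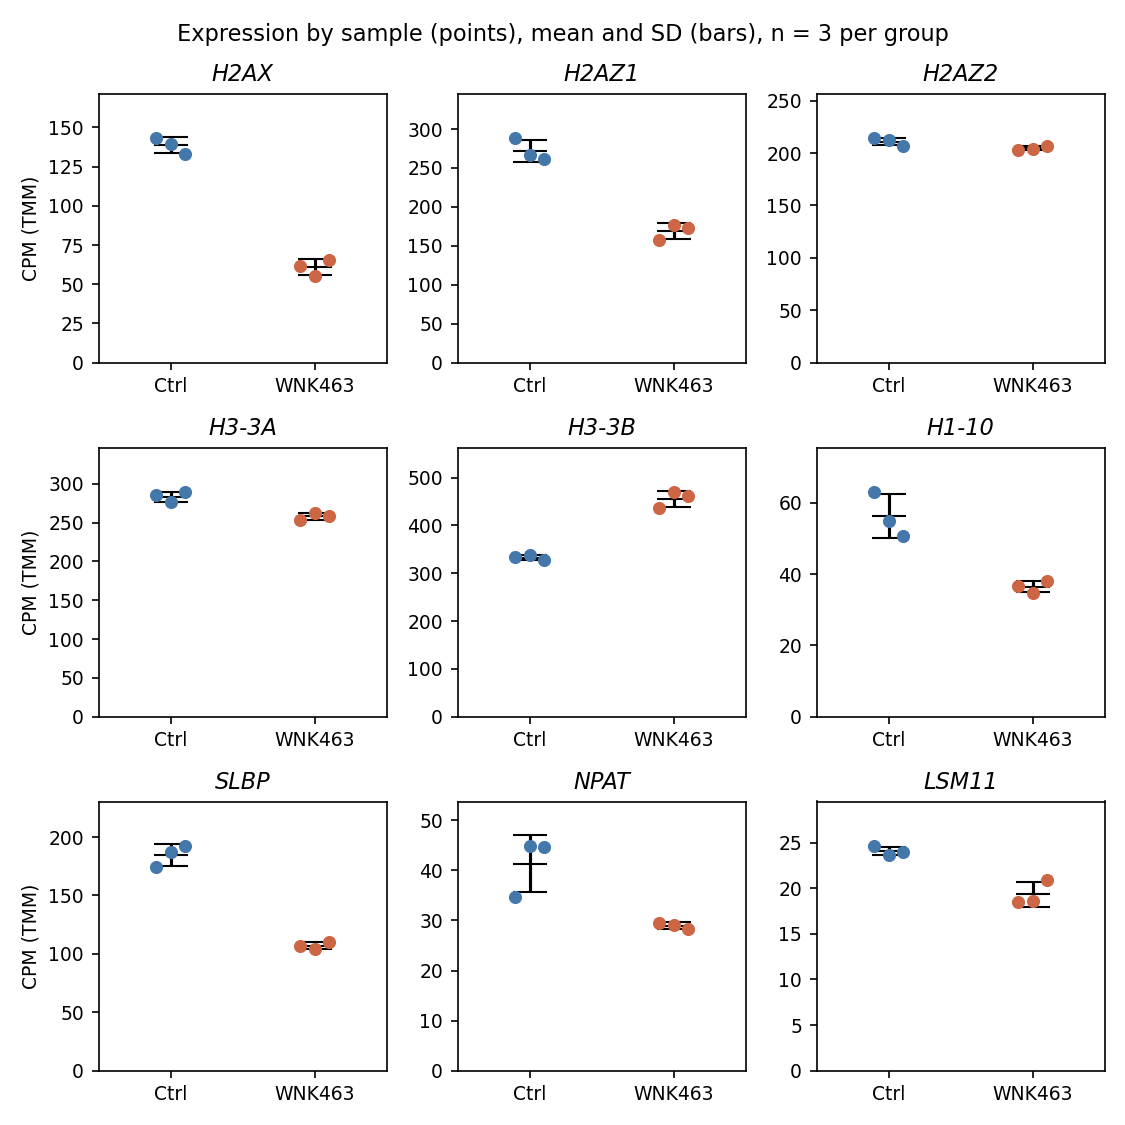
Normalized level of each gene in CPM (vertical axes, starting at 0) in the 3 Control (Ctrl) and 3 WNK463 samples. Points are samples and bars the mean and SD. *H2AX* fell to 43.9% of Control, *H3-3B* rose to 137%, and the *H2AZ2* groups meet near 207 CPM.

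*H2AX* (ENSG00000188486, chr11:119093854-119095467, minus strand) encodes the H2A variant that is phosphorylated around DNA double-strand breaks. Its level was 143, 139.6 and 133 CPM in Control and 61.6, 55.4 and 65.5 CPM with WNK463. Every treated sample was thus far below every Control sample. It fell with a log2 fold change of -1.19 (SE 0.062, adjusted p = 1.4e-11 from edgeR), which placed it at position 429 of 11973 genes ordered from the strongest fall. It was -1.04 with total counts and -0.97 on the TPM scale. Of 69 replication-dependent genes 21 passed the filter on low counts, of which 18 were called higher and 2 lower. Of the 28 with a stem-loop match, a group formed after the values were seen, 14 passed, of which 13 were higher and 1 lower. Genes near 0 in Control could pass only by being high with WNK463, so these counts are a description. *H2BC21* had 2.08 CPM in Control and a log2 fold change of 3.74, opposite in direction to *H2AX*.

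The H2A.Z genes *H2AZ1* and *H2AZ2* encode near-identical proteins that replace H2A at promoters. *H2AZ1* (ENSG00000164032, chr4:99948086-99950388, minus strand) had 288, 266 and 262 CPM in Control and 157, 177 and 173 CPM with WNK463. It fell by 0.69 on the log2 scale (SE 0.055, adjusted p = 3.9e-09 from edgeR), with no overlap between groups. *H2AZ2* (ENSG00000105968, chr7:44826791-44848083, minus strand) had 214, 212 and 207 CPM in Control and 203, 204 and 207 CPM with WNK463. Its log2 fold change was -0.045 with a 95% interval from -0.14 to 0.05 (adjusted p = 0.38 from edgeR), but it was 0.11 and passed with total counts (adjusted p = 0.035).

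The balance between both H2A.Z genes does not depend on the library scaling. The log2 ratio of *H2AZ1* to *H2AZ2* counts was 0.43, 0.33 and 0.34 in Control and -0.37, -0.20 and -0.26 with WNK463. It shifted by -0.64 (exact two-sided permutation test, p = 0.10, adjusted over 2 ratios 0.10, the smallest possible). On the TPM scale, which corrects for transcript length, *H2AZ1* made up 73.3% ± 0.199 of the H2A.Z transcripts in Control and 65.7% ± 1.45 with WNK463 (n = 3, SD). The summed level of both genes was 483 ± 16.8 CPM in Control and 373 ± 11.7 CPM with WNK463 (n = 3, SD), without overlap. The log2 ratio of the sums was -0.37, and -0.22 with total counts. Over the 384 bases of their coding sequence, both genes share 80.5% of bases. GENCODE 29 names 6 pseudogenes after *H2AZ1* and 1 after *H2AZ2*, and how their reads were counted is not given in the sources used here.

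The balance of the H3.3 genes shifted towards *H3-3B*. *H3-3A* and *H3-3B* encode the same H3.3 protein, the replacement H3 that is deposited outside of replication. *H3-3B* (ENSG00000132475, chr17:75776434-75785893, minus strand) had 333, 337 and 328 CPM in Control and 436, 469 and 461 CPM with WNK463, so the groups are well apart. It rose by a log2 fold change of 0.45 (SE 0.045, adjusted p = 7.0e-08 from edgeR), and by 0.60 with total counts. *H3-3A* (ENSG00000163041, chr1:226061851-226072001, plus strand) had 285, 276 and 289 CPM in Control and 253, 262 and 259 CPM with WNK463. Its log2 fold change was -0.14 (95% interval -0.23 to -0.041, adjusted p = 0.012 from edgeR) with TMM but 0.017 with total counts, where it did not pass (adjusted p = 0.73).

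The log2 ratio of *H3-3A* to *H3-3B* counts was -0.22, -0.29 and -0.18 in Control and -0.78, -0.84 and -0.83 with WNK463. The ratio moved by -0.59, with every treated sample below every Control sample (exact two-sided permutation test, p = 0.10). In TPM, *H3-3B* gave 50.6% ± 0.265 of the H3.3 transcripts in Control and 59.6% ± 0.837 with WNK463 (n = 3, SD). The sum of both genes was 616 ± 2.62 CPM in Control and 713 ± 21.5 CPM with WNK463 (n = 3, SD). The log2 ratio of the sums was 0.21, and 0.36 with total counts. Thus the H3.3 transcripts were higher as a sum while the H2A.Z transcripts were lower. Both H3.3 genes share 78.4% of the 408 bases of their coding sequence. GENCODE 29 names 6 pseudogenes after *H3-3A* and 2 after *H3-3B*. The gene *UNK* overlaps the annotated *H3-3B* gene by 1123 bases on the other strand. *UNK* fell from 38.3 to 22.3 CPM (log2 fold change -0.78, adjusted p = 2.6e-08 from edgeR). Whether counting used strand is not given in the sources used here.

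**Figure D2:**
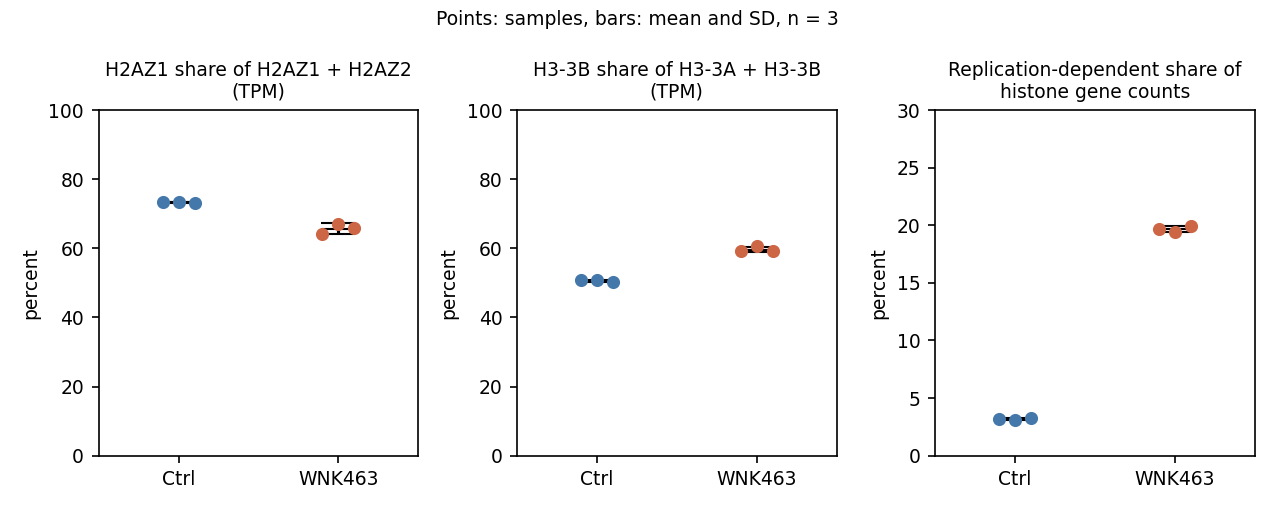
Share in percent (vertical axes, starting at 0) of *H2AZ1* among H2A.Z transcripts and of *H3-3B* among H3.3 transcripts, both in TPM, and of replication-dependent genes among the counts of these genes and the 6 variant histones. Points are samples and bars the mean and SD. The *H2AZ1* share fell from 73.3% to 65.7%, the *H3-3B* share rose from 50.6% to 59.6%, and the replication-dependent share rose from 3.18% to 19.7%.

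*H1-10* (ENSG00000184897, chr3:129314771-129316277, minus strand) encodes a linker histone variant from a gene without introns. It had 62.9, 54.9 and 50.8 CPM in Control and 36.6, 34.8 and 38.0 CPM with WNK463. The Control samples spread over a wider range, and the lowest of them was above all treated samples. *H1-10* fell by 0.62 on the log2 scale (SE 0.078, adjusted p = 1.2e-06 from edgeR).

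In TPM, the order of the 9 genes in Control was *H2AZ1* (583), *H3-3B* (535), *H3-3A* (523), *H2AZ2* (212), *SLBP* (197), *H2AX* (165), *H1-10* (68.8), *NPAT* (14.9) and *LSM11* (6.81). Only *H3-3B* and *H3-3A* overlapped with their neighbour in this order. With WNK463, *H3-3B* (768) came first, then *H3-3A* (520) and *H2AZ1* (414), and no neighbours overlapped. The places from *H2AZ2* to *LSM11* stayed in the same order. The summed level of the 6 variant histones was 1294 ± 28 CPM in Control and 1184 ± 31.8 CPM with WNK463 (n = 3, SD), a log2 ratio of -0.13. With total counts this ratio was 0.024 and the groups overlapped, as they did in TPM with a ratio of -0.023. The sum therefore has no direction that holds across scalings. Replication-dependent genes made up 3.18% ± 0.0643 of the counts of 69 such genes and the 6 variants in Control and 19.7% ± 0.257 with WNK463 (n = 3, SD). RNA was captured with mRNA beads, the sources used here do not say whether these select for poly(A) tails, and the part of the tail in this share was not tested.

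**Figure D3:**
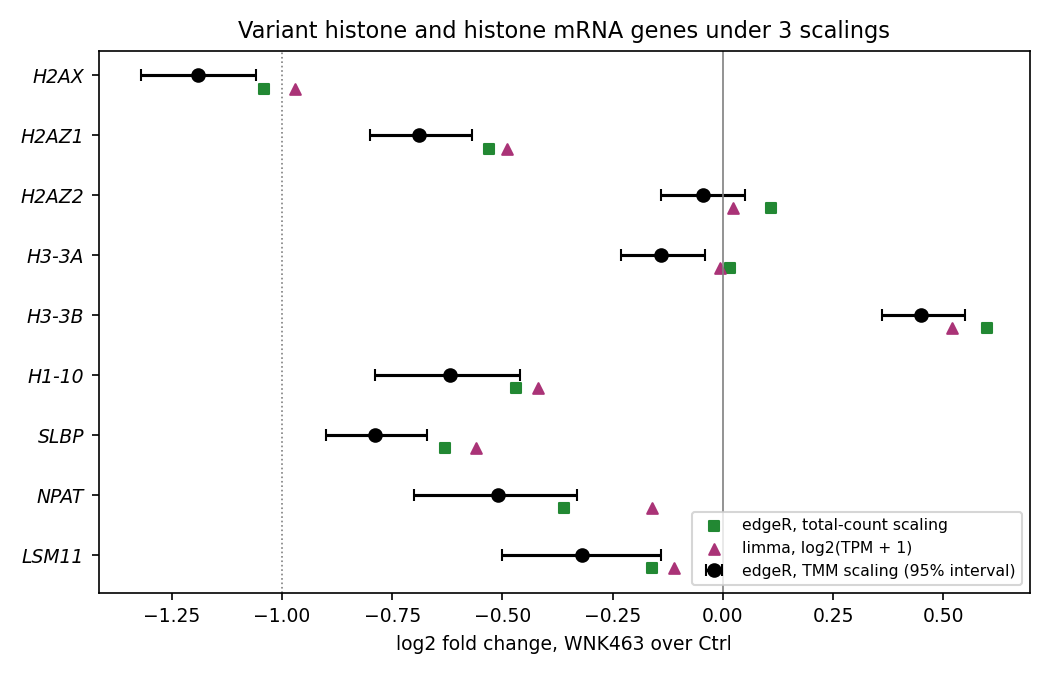
Log2 fold change of WNK463 over Control (horizontal axis) for each gene, with edgeR and TMM (circles with 95% intervals), edgeR with total counts (squares) and limma on log2(TPM + 1) (triangles). The dotted line is at -1. *H2AX*, *H2AZ1*, *H1-10*, *SLBP*, *NPAT* and *LSM11* are below 0 and *H3-3B* above 0 under all 3, whereas *H2AZ2* and *H3-3A* lie on both sides of 0. *NPAT* did not pass with limma, and *LSM11* did not pass with total counts or limma.

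All 3 factor genes were lower with TMM. *SLBP* (ENSG00000163950, chr4:1692800-1712555, minus strand), which stays with the histone mRNA from processing to translation and decay, had 174, 187 and 192 CPM in Control and 107, 104 and 109.8 CPM with WNK463. It fell by 0.79 on the log2 scale (SE 0.053, adjusted p = 3.8e-10 from edgeR), and by 0.63 with total counts. The lowest Control sample was far above the highest treated sample.

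*NPAT* (ENSG00000149308, chr11:108157215-108222642, minus strand), which is activated by cyclin E and CDK2, had 34.7, 44.8 and 44.6 CPM in Control and 29.5, 29.1 and 28.2 CPM with WNK463. Control replicate 1 was nearer to the treated samples than the other Control samples were. It fell with a log2 fold change of -0.51 (SE 0.09, adjusted p = 5.8e-05 from edgeR), but it was -0.16 on the log2(TPM + 1) scale and did not pass (adjusted p = 0.27 from limma). Counts per TPM, taken relative to the median gene of the sample, follow the estimated transcript length. For *NPAT* they were 1.91, 1.91 and 2.03 in Control and 1.57, 1.77 and 1.87 with WNK463, each treated sample being below each Control sample. The groups were also apart for the other genes described except *H3-3A*, higher with WNK463 for *H2AZ2* and *H3-3B* and lower for the rest. This includes *H1-10* and *LSM11*, which have 1 annotated transcript each in GENCODE 29. The log2 ratio of the means was -0.16 for *NPAT* and -0.028 for both *H1-10* and *LSM11*. The share of all genes tested whose groups were apart on this measure is not given here, so these separations are only a description. A change in the transcripts used was not tested.

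*NPAT* and *ATM* start on opposite strands, and their RefSeq starts (GRCh38.p14) are 428 bases apart. *ATM*, a kinase that phosphorylates H2AX at DNA breaks, had 159.5 ± 4.92 CPM in Control and 186 ± 10.5 CPM with WNK463 (n = 3, SD). Its log2 fold change was 0.23 (adjusted p = 9.0e-04 from edgeR), against -0.51 for *NPAT*. The annotated genes overlap by 159 bases, and whether reads there were split by strand is not given in the sources used here.

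*LSM11* (ENSG00000155858, chr5:157743695-157760709, plus strand) had the lowest level, with 24.6, 23.7 and 24.0 CPM in Control and 18.5, 18.6 and 20.9 CPM with WNK463. It fell with a log2 fold change of -0.32 (SE 0.085, adjusted p = 0.0030 from edgeR). It did not pass with total counts (-0.16, adjusted p = 0.09) or on the log2(TPM + 1) scale (-0.11, adjusted p = 0.38 from limma).

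In the 250 bases before the RefSeq start (GRCh38.p14), CCAAT, searched on both strands, occurred 4 times in *H2AX*, 4 times in *H3-3B*, 4 times in *H2AZ2*, 3 times in *H2AZ1* and 2 times in *NPAT*. It occurred 0 times in *SLBP*, *LSM11* and *H1-10*, and at most 1 time in each of the *H3-3A* starts. Of 34943 promoters, 32% held it at least 1 time and 0.879% at least 4 times. The letters TATAAA were found 1 time each in *H2AX*, *H2AZ1*, *H3-3B* and *H1-10*, and in 10.8% of all promoters. TTTGAA was found in *H2AX* alone (13.4% of all promoters), GCGGGAA at 1 of the *H3-3A* starts (5.51%), and GGGCGG at least 1 time in all but *H2AX*, *H3-3B* and *H1-10* (42.5%). All were searched on both strands, and matches that overlap were not removed. The promoters of the gene that fell most, the gene that rose, and *H2AZ1* are printed 5′ to 3′ up to the base before the start, with CCAAT or its reverse complement in capitals. They lie at chr11:119095466-119095715 (*H2AX*), chr17:75779780-75780029 (*H3-3B*) and chr4:99950276-99950525 (*H2AZ1*), each on the minus strand.
H2AX: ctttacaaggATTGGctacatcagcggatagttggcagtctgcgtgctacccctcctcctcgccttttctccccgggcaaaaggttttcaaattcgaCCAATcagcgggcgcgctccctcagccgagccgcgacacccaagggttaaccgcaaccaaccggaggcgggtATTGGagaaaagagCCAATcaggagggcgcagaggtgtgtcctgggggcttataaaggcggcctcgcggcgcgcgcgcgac
H3-3B: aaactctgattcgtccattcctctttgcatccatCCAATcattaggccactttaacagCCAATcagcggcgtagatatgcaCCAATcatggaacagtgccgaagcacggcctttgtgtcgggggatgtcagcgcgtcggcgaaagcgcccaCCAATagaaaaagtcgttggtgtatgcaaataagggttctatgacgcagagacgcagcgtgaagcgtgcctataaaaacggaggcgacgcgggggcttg
H2AZ1: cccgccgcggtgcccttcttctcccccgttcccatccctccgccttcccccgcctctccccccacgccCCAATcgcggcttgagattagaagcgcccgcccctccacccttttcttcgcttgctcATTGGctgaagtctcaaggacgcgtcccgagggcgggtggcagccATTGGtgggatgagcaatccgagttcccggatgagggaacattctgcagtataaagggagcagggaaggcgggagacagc
A match is a match of letters only, and genes with 4 matches were found among those that fell, rose and did not pass.

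Lists of related genes are read against all genes tested, of which 35.3% were called lower and 35.5% higher. With total counts these shares were 26.1% and 46.1%. Of 10 genes of the histone locus body and histone transcription, 8 were lower and 1 higher at an adjusted p below 0.05 from edgeR, with a median log2 fold change of -0.46. This list holds *NPAT* itself, and without it 7 of 9 genes were lower and 1 higher (median -0.40). It also holds the cell cycle genes *CDK2*, *CCNE1*, *CCNE2*, *CCNA2* and *E2F1*, and the largest falls are among these. *COIL* and *CASP8AP2* were called lower with log2 fold changes of -0.40 and -0.37. *CDK2*, the kinase that acts on NPAT, fell by 1.43 on the log2 scale (adjusted p = 2.5e-12 from edgeR), from 68.2 ± 2.57 to 25.3 ± 0.694 CPM (n = 3, SD). *E2F1*, a transcription factor of S phase entry, fell by 1.29, and *CCNE2*, a cyclin E gene, fell by 1.24. *HINFP*, a factor of H4 gene promoters, had a log2 fold change of 0.21 (adjusted p = 0.04 from edgeR), and with DESeq2 0 genes of this list were called higher. *POU2F1*, a factor of H2B gene promoters, did not pass (-0.19, adjusted p = 0.059 from edgeR).

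Of 19 genes of histone 3′ end processing, 16 were lower and 2 higher, with a median of -0.47. With total counts 12 were lower. The list holds *SLBP* and *LSM11*, and without them 14 of 17 genes were lower and 2 higher (median -0.47). Many of its genes, such as those of Sm, cap-binding and cleavage proteins, also serve other mRNAs. *SNRPD3*, a Sm protein of the U7 and spliceosomal snRNPs, fell by 0.89 and had 129 ± 3.46 CPM in Control and 69.3 ± 1.48 CPM with WNK463 (n = 3, SD). The cap-binding protein gene *NCBP1* fell by 0.83 and *SRRT*, its partner, fell by 0.72. The higher genes were *MIF4GD*, whose protein binds SLBP in translation (0.53, adjusted p = 1.2e-06 from edgeR), and *LSM10* (0.36, adjusted p = 7.7e-04 from edgeR). LSM10 is the partner of LSM11 in the U7 snRNP. *LSM10* had 24.3 ± 1.60 CPM in Control and 31.1 ± 1.90 CPM with WNK463 (n = 3, SD), so its mRNA and that of *LSM11* went in opposite directions. The fall of *LSM11* passed with TMM. With total counts it was -0.16 and did not pass. *SNRPE*, another Sm protein gene, did not pass (-0.092 with TMM and 0.06 with total counts, adjusted p = 0.36 from edgeR with TMM).

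In the decay of histone mRNA, 9 of 14 genes were lower and 4 higher (median -0.44). *LSM4*, *UPF1* and *EXOSC10* fell by 0.70, 0.53 and 0.50 on the log2 scale. The higher genes included *TUT7*, a uridylyl transferase, with a log2 fold change of 0.59, and *DCP2* and *XRN1*, which remove the cap and degrade the mRNA from the 5′ end, with 0.52 and 0.42. *TUT4*, the other uridylyl transferase gene of this list, was called lower with a log2 fold change of -0.63. In general cleavage and polyadenylation, 8 of 13 genes were lower and 1 higher (median -0.32), and with total counts 7 were lower and 2 higher. The poly(A) polymerase gene *PAPOLA* fell by 0.72, *NUDT21* by 0.62 and *CPSF1* by 0.54, and *PCF11* rose by 0.75 on the log2 scale.

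**Figure D4:**
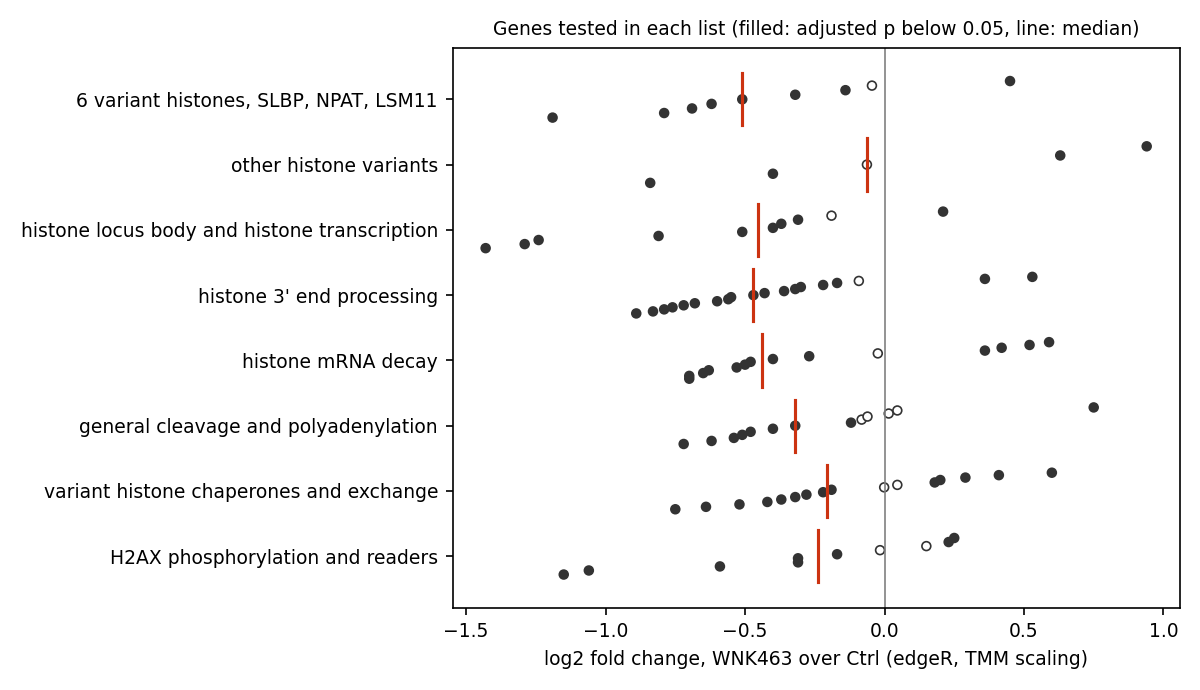
Log2 fold change of WNK463 over Control (horizontal axis) of each gene tested in the 9 genes described and in 7 related lists (vertical axis). Filled points have an adjusted p below 0.05 and lines mark the median of each list. The list of 3′ end processing genes has its median at -0.47 with 16 of 19 genes lower, *SLBP* and *LSM11* included. It also holds genes that serve other mRNAs, and the median of the histone mRNA decay list is -0.44.

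The mRNAs of proteins that place or read the variant histones included called genes in both directions. Of 16 chaperone and exchange genes, 9 were lower and 5 higher (median -0.21). With total counts 7 were lower and 7 higher, against 26.1% and 46.1% of all genes tested. *HJURP*, the chaperone of the centromeric H3 variant CENPA, fell by 0.75, and *EP400*, an ATPase that exchanges H2A.Z, fell by 0.52. In the HIRA complex, a chaperone of H3.3, *HIRA* and *UBN1* fell by 0.32 and 0.42, while *UBN2* and *CABIN1* rose by 0.60 and 0.20 on the log2 scale. The H3 chaperone gene *ASF1A* rose by 0.41. Of 10 genes for H2AX phosphorylation and its readers, 6 were lower and 2 higher (median -0.24), and with total counts 4 were lower and 3 higher. *MDC1*, which binds phosphorylated H2AX, fell by 1.15 (adjusted p = 1e-11 from edgeR) and *PRKDC*, a kinase of H2AX, by 1.06 (adjusted p = 2.4e-12 from edgeR). *TP53BP1* fell by 0.59. *RNF168*, a ubiquitin ligase of H2A, was higher with *ATM*, by 0.25.

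Of 13 other histone variant genes, 11 were present in the deposited data and 5 passed the filter. Of these, 2 were higher and 2 lower. *MACROH2A1* had 866 ± 21.3 CPM in Control and 1343 ± 18.9 CPM with WNK463 (n = 3, SD) and rose by 0.63 on the log2 scale (adjusted p = 3.8e-10 from edgeR), and *MACROH2A2* fell by 0.84 to 8.53 ± 0.409 CPM. *H2AJ*, an H2A variant, rose by 0.94 on the log2 scale to 14.2 ± 0.719 CPM, and *CENPA* fell by 0.40.

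The likeness of other genes to *H2AX* and *SLBP* was measured as Pearson's r of log2 CPM over the 6 samples. The closest genes were *CHD3* (0.9996), *RABL6* (0.9994) and *ARHGDIA* (0.9993) for *H2AX*, and *RBBP5* (0.9997), *VPS54* (0.9996) and *BRCA1* (0.9994) for *SLBP*. As the samples form only 2 groups, r follows the group difference, and 2441 of 11972 genes had an r of at least 0.95 with *H2AX*.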

How the data were processed

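Total RNA of MV4-11 cells was captured with mRNA beads and sequenced by the study (3 Control and 3 WNK463 samples). The authors deposited estimated counts per gene as whole numbers, without normalization, and TPM values that sum to 1000000 per sample. Per the labels, the submitters' processing notes list fastp, Bowtie2, HISAT2, StringTie, RSEM, DESeq2 and edgeR and the build GRCh38, without roles. The deposited table also holds the authors' mean TPM, log2 ratio, p-value and false discovery rate of their own comparison, and none of these was used.

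Counts were tested with edgeR 4.0.16 in R 4.3.3 over the whole table (default filter, TMM, quasi-likelihood test, no replicate block). SE was derived from the log2 fold change and the F statistic. Ratios and sums were compared by exact permutation. Alternatives were DESeq2 1.42.0, total counts, other filters, limma 3.58.1 on log2(TPM + 1) and log2(TPM + 0.1), a fold threshold, a replicate block and each sample left out. Groups follow the sample titles. The procedure was tested on simulated data in which few genes changed, with equal numbers up and down. That test therefore does not bear on the choice of scaling.

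The 9 genes and all lists were chosen with earlier results of these data known. Genes named from a list are the 3 per direction with the smallest p, and, for the transcription and 3′ end processing lists, those that did not pass. *ATM* was named as a neighbour, and *UNK*, *H4C8* and the other overlapping genes were added after values were seen. *HIRA*, *COIL*, *CASP8AP2*, *CCNE1*, *CCNA2*, *TUT4*, *H4C11* and *H2BC5* were also named outside this rule after values were seen. Protein sequences were not used here.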

Additional observations from a re-analysis of the deposited data

How the results depend on the processing

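The falls of *H2AX*, *H2AZ1*, *H1-10* and *SLBP* and the rise of *H3-3B* kept direction and passed in each of 14 other fits that tested against no change. Of 126 combinations of a gene and an alternative, 111 kept direction and side of the threshold, 10 kept direction and no longer passed, and 5 changed direction. The last were *H3-3A* with total counts (0.017) and *H2AZ2* with total counts (0.11) and with limma on log2(TPM + 1), with and without a filter, and on log2(TPM + 0.1) (0.024 in each). The number of genes called lower was 7, against 3 with edgeR's test against a log2 fold change of 0.5 (glmTreat, which called 26.7% of all genes tested) and 4 with limma on TPM under each of 3 settings. The share of all genes that limma called lower is not given here, so its count cannot be read against it. The number called higher was 1, against 2 with total counts and 0 with glmTreat. The shift of the *H2AZ1* to *H2AZ2* ratio was -0.52 and that of the *H3-3A* to *H3-3B* ratio -0.53 with TPM, against -0.64 and -0.59 with counts. The change of the H2A.Z sum was -0.22 with total counts, and that of the H3.3 sum was 0.28 with TPM and 0.36 with total counts. Of 32 list counts, 30 stayed within 1.5 times. With each sample left out, 7 genes were lower and 1 higher in each fit, and the log2 fold changes of *H2AX* ranged from -1.25 to -1.12 and of *NPAT* from -0.63 to -0.46. With the replicate number as a block, 7 genes were lower and 1 higher as well. Samples with the same number did not deviate together (correlations across genes of 0.0188, -0.00706 and -0.048), so the numbers were not taken to pair the samples. The causes of these differences were not tested. The lowest count of any of the 9 genes in a sample was 307.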
